A study of Mus musculus with 4 samples.

Results

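The cytosolic ribosome of mouse erythroid cells is described here through the features of 1 expression array that are annotated to a single ribosomal protein gene. Members were chosen by symbol alone: names of the Rpl and Rps pattern, with Rplp0, Rplp1, Rplp2 and Rpsa, and without pseudogene symbols. This gave 217 of 28944 tested features, which stand for 61 genes, 38 of the large and 23 of the small subunit. MEL cells, an erythroleukemia line kept in serum with puromycin, had been induced by 48 hours of 17b-estradiol. The ES-EP line, progenitors grown out of embryonic stem cells, had been expanded with erythropoietin, IGF-1, dexamethasone and stem cell factor, and was set to differentiate for 24 hours with erythropoietin, insulin and mifepristone, an antagonist of the glucocorticoid receptor. Each group had 2 samples, A and B, on 1 array each (Affymetrix Mouse Gene 1.0 ST). Effects of line, medium, inducer and duration cannot be told apart, and no label says that A and B were separate cultures, so the p-values measure only the spread between these samples, which may be technical.

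A ribosome is made of a small subunit, which reads the mRNA, and a large subunit, which joins amino acids and releases the chain through a tunnel. Each subunit is ribosomal RNA with many proteins, most of them present as single copies, so their genes are usually transcribed at matched levels. Their mRNAs begin with a run of pyrimidines, the terminal oligopyrimidine or TOP tract, through which mTORC1 and LARP1 control translation. Red cell precursors are known to be sensitive to ribosome supply: in humans, loss of 1 copy of any of several ribosomal protein genes causes Diamond-Blackfan anemia. In mouse, many of these genes have near-identical processed copies elsewhere in the genome, so array features of a gene often lie at several loci and may share probes.

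Erythroid identity was checked on 10 measured marker genes, with group means between 7.04 and 12.42 (log2) for MEL, against 9.59 and 13.22 for ES-EP. The lowest in MEL was Slc4a1, the anion exchanger of red cells, at 7.04, against 12.48 in ES-EP. In MEL 8 of the 10 were lower and 2 higher. Over all genes 36.9% were called lower and 21.8% higher, shares that stand beside every marker count here. The myeloid, mast cell, lymphoid and pluripotency marker lists had medians between 3.93 and 4.71 for MEL, against 4.42 and 4.81 for ES-EP, and the fibroblast and stromal list 6.46 and 6.47. Of 5 megakaryocyte markers 2 were higher and 1 lower, with a list median difference of 0.06. The platelet factor gene Pf4 averaged 8.34 in MEL, against 3.96 in ES-EP. The integrin gene Itgb3 went the other way, at 5.57 in MEL, against 7.94 in ES-EP. Of 5 mast cell markers 4 were lower and 0 higher (limma; 5 and 0 at an unadjusted p under 0.05). After quantile normalization 2 were lower and after cyclic loess 3, where all genes gave 22.9% and 24.5%. The list was dim, with medians of 3.93 in MEL and 4.46 in ES-EP. Its member Ms4a2, a subunit of the IgE receptor, averaged 3.93 in MEL, against 7.45 in ES-EP. The part of other cell types in the results below was not tested, and in bulk RNA fewer cells of a type and less RNA per cell cannot be told apart. The 2 MEL arrays correlated across features with r = 0.997 and the 2 ES-EP arrays with r = 0.998, which describes the arrays and is no test.

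With the brightest feature standing for each gene, 8 of 61 genes passed as higher in MEL and 20 as lower (limma, Benjamini-Hochberg adjusted over all features, threshold 0.05), and 33 did not pass. Over all 19938 genes 21.8% were called higher and 36.9% lower, so the members' 13.1% and 32.8% lay below both shares in the values as deposited. A total of 51 members differed by less than 1.5-fold, as did 14443 of all 19938 genes. On the log2 scale the members had a median difference (MEL minus ES-EP) of -0.09, against -0.14 over all genes. It was -0.09 for the large and -0.14 for the small subunit. Counted as features, 15 of 217 were higher and 80 lower (6.91% and 36.9%), where all features gave 19.1% and 37.4%.

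These small differences depended on how the arrays were scaled: the median of all genes was 0.04 after quantile normalization, -0.07 after centring on array medians and 0.02 after cyclic loess. With quantile normalization 11 members passed as higher and 16 as lower, where all genes gave 30.1% and 22.9%. Centring gave 9 higher and 15 lower members (14.75% and 24.59%, all genes 23.0% and 28.8%). Cyclic loess gave 15 and 15 (24.59% each, all genes 29.0% and 24.5%). The members' median relative to that of all genes was 0.05 as deposited, -0.07 after quantile normalization and 0.005 after cyclic loess. After cyclic loess the medians of all members and of the large subunit were positive, at 0.02 and 0.04. With duplicates on either side, the values of MEL and ES-EP arrays did not overlap in 52 of 61 members, where 80.2% of all genes showed no overlap.

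**Figure D1:**
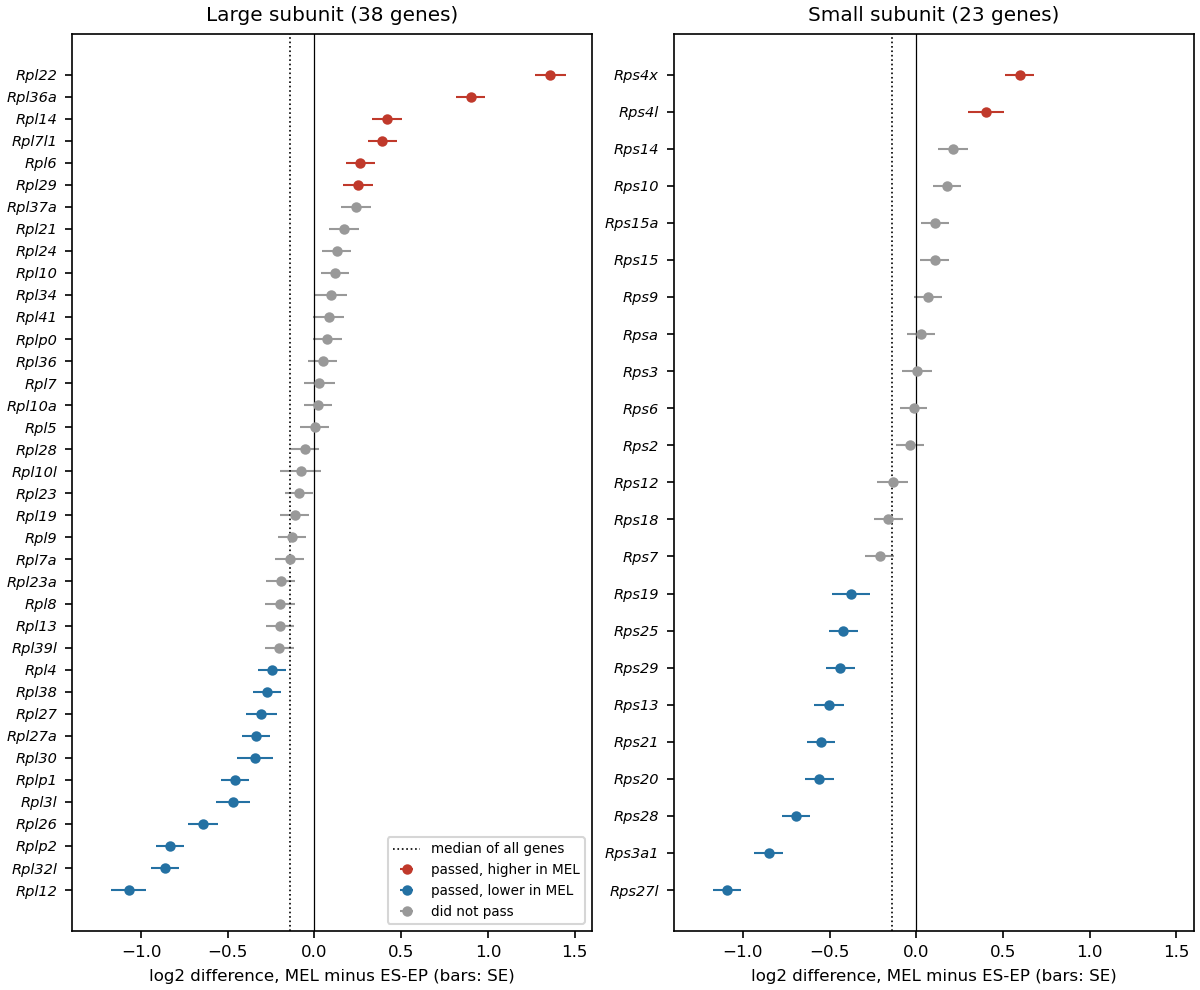
Log2 difference of MEL minus ES-EP for the brightest feature of each ribosomal protein gene, with the standard error of the fit as bars (n = 2 samples per group), in the large subunit (left, 38 genes) and the small subunit (right, 23 genes). Red points passed as higher in MEL and blue ones as lower. Most points lie near the dotted line, the median of all genes at -0.14, and Rpl22 at 1.36 and Rps27l at -1.09 mark the ends.

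Members that stood at least 2-fold apart were few: 1 higher and 2 lower of 61, where 7.38% and 4.93% of all genes were that far apart (of all features 6.27% and 5.17%). Rpl22, a protein near the tunnel exit that can be lost in T cell leukemia and lymphoma, had log2 values of 10.32 and 10.20 in the MEL samples, against 8.96 and 8.85 in the ES-EP samples (feature 10510720). Both MEL arrays lay well above both ES-EP arrays, a 2.57-fold difference (1.36 ± 0.09, SE, adjusted p = 1.92e-05). Its paralog Rpl22l1, which can take its place in the ribosome, has no feature of its own and was not analysed here. Rps27l, a paralog of Rps27 that is known as a target of the p53 pathway, had 9.59 and 9.66 in MEL, against 10.73 and 10.71 in ES-EP cells. It was 2.13-fold lower in MEL (-1.09 ± 0.08, SE, adjusted p = 3.58e-05) with no overlap of the groups. Its difference was under 2-fold after quantile normalization (-0.96) and cyclic loess (-0.98). Rps27 itself has no feature of its own.

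The third of these was Rpl12, a protein at the base of the large subunit stalk. Its values were 7.57 and 7.81 in MEL, against 8.76 and 8.77 in ES-EP cells, 2.10-fold lower (-1.07 ± 0.10, SE, adjusted p = 0.000119). The MEL duplicates were further apart here than in most members but stayed below both ES-EP arrays, and without MEL sample A the difference was -0.95, under 2-fold.

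The P stalk recruits the GTPase factors of translation to the large subunit and consists of Rplp0, Rplp1 and Rplp2 seated beside Rpl12. Of its 4 genes 3 were lower in MEL and 0 were higher (limma), as they also were at an unadjusted p under 0.05 and under each other scaling, where 36.9% of all genes were lower as deposited. The acidic stalk protein gene Rplp2 had 6.37 and 6.30 in MEL, against 7.16 and 7.17 in ES-EP cells, 1.78-fold lower (adjusted p = 0.000136). Its partner Rplp1 had 12.64 and 12.62 in MEL, against 13.07 and 13.09 in ES-EP cells, 1.37-fold lower (adjusted p = 0.00242), and both of its features passed. Neither gene's groups overlapped. Rplp0, which anchors the stalk to ribosomal RNA, did not pass. It had 12.98 and 12.88 in MEL, against 12.87 and 12.85 in ES-EP cells, and differed by 0.07 (95% interval, -0.12 to 0.27; adjusted p = 0.483). The features of Rpl12, Rplp2 and Rps3a1 are each annotated with a single accession that is not a curated RefSeq transcript, the 3 members of which this holds, so they may not measure the main mRNA.

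Rpl36a, another large subunit protein, was the second highest member. It had 12.52 and 12.46 in MEL, against 11.63 and 11.55 in ES-EP cells, 1.87-fold higher (0.90 ± 0.08, SE, adjusted p = 0.000103), and reached 1.01 after cyclic loess. Rps4x, a small subunit protein encoded on the X chromosome, had 12.37 and 12.36 in MEL, against 11.81 and 11.73 in ES-EP cells, 1.51-fold higher (adjusted p = 0.000791). Both features of Rpl36a and all 5 of Rps4x were higher, with differences of 0.78 to 0.90 and 0.60 to 0.73. These members share a chromosome, a property the symbols did not select. The third member on X, Rpl10, which sits close to the catalytic center, had 13.43 and 13.44 in MEL, against 13.32 and 13.32 in ES-EP cells, and did not pass (0.12, adjusted p = 0.246). It was at -0.04 after quantile normalization and passed as higher after cyclic loess (0.22, adjusted p = 0.0366).

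Bright X-linked genes, which include these 3 members, were also higher in MEL more often than lower, while the median over all X-linked genes was -0.02. The part of X linkage in the members' differences was not tested. Of 739 X-linked genes 32.3% were higher and 26.3% lower in MEL, against 21.4% and 37.3% of 19103 autosomal genes. After quantile normalization these X-linked shares were 42.6% and 12.9%, against 30.1% and 22.9% of all genes. Among the brightest 10% of all genes, 79 are X-linked, and 48 of these were higher and 10 lower, with a median difference of 0.41. The median over the brightest 10% of genes was -0.16, with 23.0% higher and 42.9% lower. After quantile normalization 54 of the 79 were higher and 9 lower (68.4% and 11.4%), against 30.6% and 35.1% of the brightest genes. Cyclic loess gave the same 54 and 9, where 35.8% of the brightest genes were lower. The members off X had 6 higher and 20 lower genes of 58, with a median of -0.12.

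**Figure D2:**
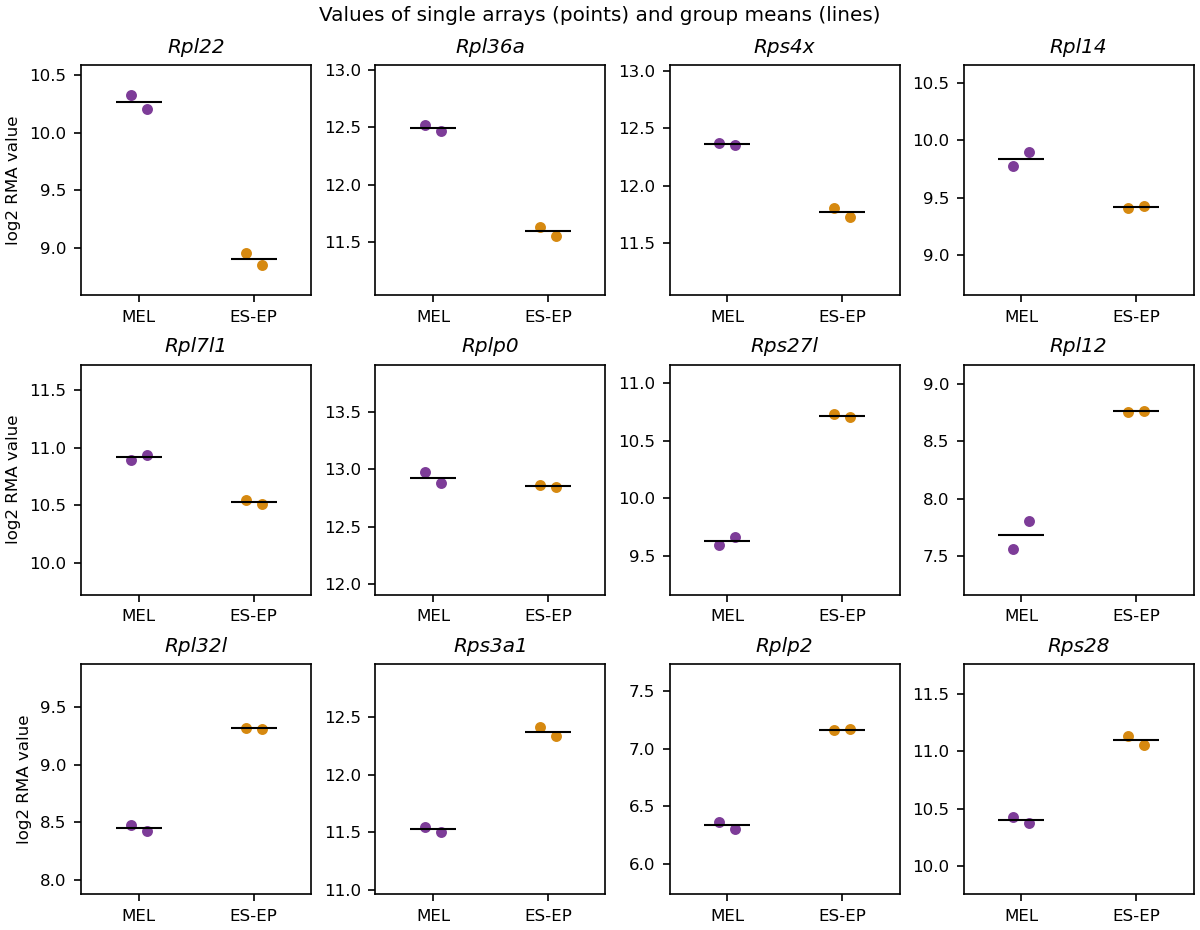
Log2 values of the single arrays for 12 ribosomal protein genes, with MEL samples (purple) left of ES-EP samples (orange), lines at the group means and a vertical span of 2 log2 units in every panel. The duplicates lie close together beside the distance between the groups in the panels of Rpl22, Rpl36a, Rps27l and Rps3a1, while Rplp0 stays level.

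Other large subunit genes that passed as higher differed by less than 1.4-fold. Rpl14 had 9.77 and 9.90 in MEL, against 9.41 and 9.43 in ES-EP cells, 1.34-fold higher (adjusted p = 0.00516). Rpl6 (0.26, adjusted p = 0.0279) and Rpl29 (0.25, adjusted p = 0.0392) lost their call when single samples were left out. That was so for Rpl29 without any of the 4 samples (adjusted p of 0.0531 to 0.256). Rpl6 lost it without MEL sample A or either ES-EP sample (0.0606 to 0.164). The other 2 features of Rpl6 did not pass, at 0.09 and -0.09.

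On the lower side of the large subunit, Rpl32l, a gene annotated as a relative of Rpl32, had 8.48 and 8.43 in MEL, against 9.32 and 9.31 in ES-EP cells. It was 1.82-fold lower (-0.86 ± 0.08, SE, adjusted p = 0.000107). Rpl26, a protein of the tunnel exit, had 8.04 and 7.93 in MEL, against 8.65 and 8.60 in ES-EP cells, 1.56-fold lower (adjusted p = 0.000623). In both genes the groups were clearly apart. The remaining genes that passed as lower were Rpl30, Rpl27a, Rpl27, Rpl38 and Rpl4, with differences of -0.34 to -0.25, and Rpl3l, described below. Rpl5, which with Rpl11 binds the 5S ribosomal RNA and, when free, MDM2, was level. It had 12.56 and 12.51 in MEL, against 12.56 and 12.51 in ES-EP cells (difference 0.0003, 95% interval -0.19 to 0.19).

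Of 23 small subunit genes 9 were lower and 2 higher (39.1% and 8.70%), against 36.9% and 21.8% of all genes, so the share of lower genes was near the background. Rps3a1, a protein of the platform side, had 11.54 and 11.51 in MEL, against 12.42 and 12.33 in ES-EP cells, a difference of -0.85 (± 0.08, SE, adjusted p = 0.000136). Rps28, which lies by the mRNA exit, had 10.43 and 10.38 in MEL, against 11.13 and 11.06 in ES-EP cells, 1.62-fold lower (adjusted p = 0.000384). All 7 features of Rps28 passed as lower, at -0.73 to -0.32. Rps20, Rps21 and Rps13 were 1.47-fold, 1.46-fold and 1.42-fold lower, and Rps29 and Rps25 were 1.35-fold and 1.34-fold lower. By place in the subunit, 2 of 4 measured genes of the mRNA exit side were lower and 0 higher, with 2 and 1 at an unadjusted p under 0.05, where 36.9% of all genes were lower. After quantile normalization and after cyclic loess 2 were lower and 1 higher. Rpsa, counted here as not passed by its brightest feature, had its other 4 features called lower. On the mRNA entry side 0 of 4 passed in either direction, also at an unadjusted p under 0.05, though 1 passed as higher after cyclic loess. Among those 4, named after their values were seen, Rps2 and Rps3 had differences of -0.04 and 0.002.

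Genes whose human counterparts are mutated in Diamond-Blackfan anemia had 10 measured members, of which 6 were lower in MEL and 0 were higher (limma; 7 and 0 at an unadjusted p under 0.05), where all genes gave 36.9% and 21.8%. Their median difference was -0.34. The lower and higher genes were 4 and 1 after quantile normalization and after cyclic loess. Rps19, the gene most often mutated in the disease, had 9.70 and 9.43 in MEL, against 9.95 and 9.94 in ES-EP cells (-0.38 ± 0.11, SE, adjusted p = 0.0206). The MEL duplicates of Rps19 differed by more than those of the other genes on the list. Its call was lost without MEL sample B or either ES-EP sample (adjusted p of 0.0593 to 0.0725), and after quantile normalization (0.156) and cyclic loess (0.124). The others that passed were Rps28, Rpl26, Rps20, Rps29 and Rpl27. Rpl27 lost its call after all 3 other scalings (adjusted p of 0.0942 to 0.113) and without either MEL sample or ES-EP sample A (0.0525 to 0.199), and the other 4 kept theirs in every alternative run. Rpl5, Rps7, Rps10 and Rps15a did not pass. Rps7 passed as lower with an intensity trend in the prior (adjusted p = 0.000207) and without dim features (0.0335). Rps10 passed as higher with the trend (0.00264), after quantile normalization (0.25, adjusted p = 0.0232) and cyclic loess (0.29, adjusted p = 0.0172).

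Paralogs and their parents, beyond those described above, differed by less than 1.4-fold. Rpl7l1, a relative of Rpl7 that acts in ribosome assembly, had 10.89 and 10.94 in MEL, against 10.54 and 10.51 in ES-EP cells, 1.31-fold higher (adjusted p = 0.00522). Its parent Rpl7 did not pass (0.03, 95% interval -0.18 to 0.24). Rps4l, the only member that RefSeq classes as a transcribed pseudogene, with the other 60 protein-coding, was higher on 1 feature (0.40, adjusted p = 0.0129) and at -0.06 on the other. The call of Rps4l was lost when its features were averaged (0.17, adjusted p = 0.155), without MEL sample B (0.0532) and without ES-EP sample B (0.118). The striated muscle paralog Rpl3l was dim, at 4.42 and 4.27 in MEL, against 4.90 and 4.73 in ES-EP cells, and its lower call (adjusted p = 0.00565) did not hold after quantile normalization (-0.17, adjusted p = 0.170). Rpl10l and Rpl39l, known for expression in testis, did not pass (-0.08 and -0.20) and were dim, with means of 5.71 and 3.55 in MEL, against 5.79 and 3.75 in ES-EP.

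A gene's features often told different sizes of the same direction. Of the 61 genes 39 had more than 1 feature, up to 14 for Rps12, and 19 features held exactly the values of another member feature, so that only 205 sets of values were distinct. No gene had features called in both directions. Among 38 genes with several distinct value sets, 25 had differences of 1 sign and 13 spanned 0, and the median spread between features was 0.18. The widest spread, 0.61, was in Rpsa, the laminin receptor homolog of the small subunit: its brightest feature was at 0.03 and the other 4 were called lower, at -0.58 to -0.39. Rpl23a, which lies at the tunnel exit, had 12 of 13 features called lower, at -0.54 to -0.39, while its brightest was at -0.20 and did not pass. Rpl13, with 7 of 9 features called lower, and Rps18, with 4 of 7, also had a brightest feature that did not pass. Averaging a gene's features gave 7 higher and 24 lower members, and the shares over all genes were not taken for that fit.

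**Figure D3:**
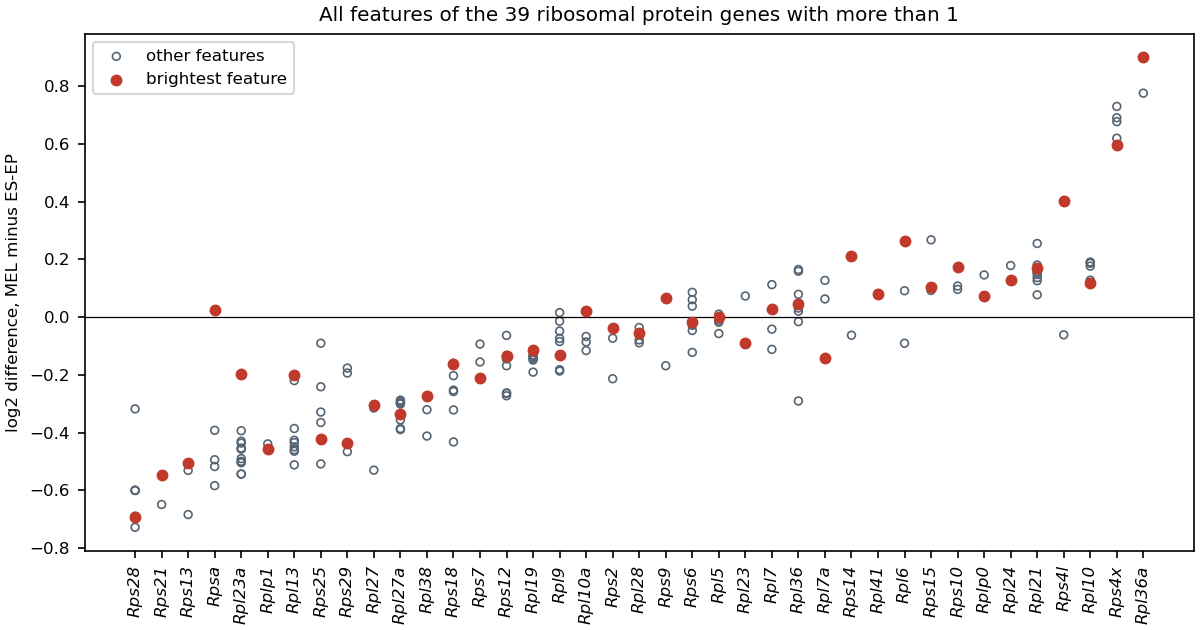
Log2 difference of MEL minus ES-EP for every feature of the 39 ribosomal protein genes with more than 1, ordered by the median, with the brightest feature in red and the others as open circles. In Rpsa, Rpl23a and Rpl13 the red point lies above nearly all the open ones, and in Rps4x and Rpl36a every feature lies above 0.

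Genes with a single feature differed more than those with several. The median size of the difference was 0.39 over 22 genes with 1 feature and 0.16 over 39 genes with several. At least 1.5-fold apart were 7 of the first and 3 of the second. All 3 members past 2-fold, and Rpl32l, Rps3a1 and Rplp2, had 1 feature each. The features' overlap with other copies was not tested. A further 239 features carry a ribosomal protein symbol beside other symbols and were left out, and 18 ribosomal protein symbols, among them Rpl11, Rpl22l1, Rps24 and Rps26, occur only there.

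The stretch around the annotated start was read for the members, because a TOP tract is the shared mark of these mRNAs. RefSeq (GRCm38.p6) gave a promoter for 49 of the 61 genes, 58 starts in all, each with 250 bases before and 50 after the start. A C followed by at least 4 pyrimidines on the gene's strand, with the C within 5 bases of the start, was present in 18 of the 49 genes (36.7%), against 21.2% of 27025 genes in the table. Annotated starts can lie off the true one by more than that window, so the share depends on the annotation. Shown are 40 bases before and 20 after the start, 5′ to 3′ on the gene's strand, with the tract in capitals. They are 4 lower members, the one with the longest tract and those with a tract in the stalk or past 2-fold, followed by the 3 highest members, none of which held a tract here. The lower ones were picked for a tract and the higher ones by size, so the contrast shown comes from the choice. Not shown are Rpl14, called higher with a tract, and Rps3a1, Rpl26 and Rps28, called lower without one.
Rpl27a, chr7:109519155-109519214, plus strand: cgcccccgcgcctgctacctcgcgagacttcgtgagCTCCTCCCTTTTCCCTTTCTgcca
Rplp2, chr7:141447611-141447670, plus strand: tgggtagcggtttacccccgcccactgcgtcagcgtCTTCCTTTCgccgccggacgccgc
Rpl12, chr2:32961672-32961731, plus strand: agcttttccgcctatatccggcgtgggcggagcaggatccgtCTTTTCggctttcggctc
Rps27l, chr9:66946046-66946105, plus strand: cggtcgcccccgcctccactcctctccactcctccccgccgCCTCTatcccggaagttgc
Rpl22, chr4:152325686-152325745, plus strand: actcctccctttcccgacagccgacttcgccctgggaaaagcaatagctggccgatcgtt
Rpl36a, chrX:134585614-134585673, plus strand: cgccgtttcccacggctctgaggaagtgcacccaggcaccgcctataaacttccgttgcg
Rps4x, chrX:102189372-102189431, minus strand: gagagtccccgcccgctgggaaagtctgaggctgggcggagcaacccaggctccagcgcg

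Rpl22 and Rps27l have 2 annotated starts each, and 1 is shown. The start of Rps27l left out held no tract, and neither start of Rpl22 did. The tract was found in 1 of 6 genes called higher, in 7 of 16 called lower and in 10 of 27 that did not pass. Genes with the tract had a median difference of -0.13 and those without it -0.08. The GC box GGGCGG, on either strand of the 300 bases, was present in 29 of 49 genes (59.2%), against 38.2% of all genes. The ETS factor motif CCGGAAG, read in the same way, was present in 19 of 49 genes (38.8%), against 9.93% of all genes. This ETS motif was found in 1 of 6 genes called higher, Rpl6, and in 10 of 27 that did not pass. It was also found in 8 of 16 called lower, Rplp2, Rps27l and Rps3a1 among them. The erythroid motifs CACCC (59.2% against 59.8%) and AGATAA (10.2% against 12.7%) were as frequent as in other promoters. None of the 49 genes had TATAAA between 40 and 15 bases before the start. Since 2.41% of all genes have it there, this is near the background. Anywhere in the 300 bases, on either strand, 12.2% had it, against 15.7% of all genes. Matches are descriptions of these letters and no evidence of binding.

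Genes that build the ribosome were lower in MEL in larger shares than the ribosomal proteins themselves. Of 38 measured factors of small subunit assembly 28 were lower and 3 higher, with a median of -0.60. Ltv1, a pre-40S factor, had 7.36 and 7.56 in MEL, against 9.66 and 9.58 in ES-EP cells, 4.46-fold lower (adjusted p = 2.79e-06). Tsr2, a chaperone of Rps26 that is mutated in rare human Diamond-Blackfan anemia, was the highest member at 1.76-fold (adjusted p = 0.000193). Of 42 factors of large subunit assembly 33 were lower and 3 higher, with a median of -0.57. Mdn1, a giant ATPase of the pre-60S particle, was 3.17-fold lower. The GTPase gene Gnl3l, one of the bright X-linked genes above, was 1.84-fold higher. The snoRNP and nucleolar list had 12 lower and 0 higher of 16, with a median of -0.61, and Nop10, a subunit of the H/ACA particle, was 4.11-fold lower. Where 36.9% of all genes were lower, these lists had 73.7% and 78.6% for the subunits and 12 of 16 for the third. Under the 3 other scalings 26 to 27, 29 to 30 and 10 to 12 of their genes were lower. At an unadjusted p under 0.05 the third list also had 12 lower and 0 higher. The difference between these lists and the ribosomal proteins was not tested.

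RNA polymerase I, which makes the large ribosomal RNAs, had genes in both directions. Of its 15 measured subunits and factors 5 were higher and 7 lower (33.3% and 46.7%), where all genes gave 21.8% and 36.9%. The list median was -0.17, against -0.14 over all genes. Taf1b, a subunit of the promoter selectivity factor, was 2.40-fold higher, and the architectural factor Ubtf was 1.86-fold lower. Polr1d, a subunit shared with RNA polymerase III, had 10.35 and 10.32 in MEL, against 9.30 and 9.17 in ES-EP cells, and was picked after its value was seen.

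Other mRNAs known for a TOP tract had 5 higher and 4 lower genes of 18, with a median of 0.04. These were 27.8% and 22.2%, where all genes gave 21.8% and 36.9%. The counts were 5 and 2 after centring (all genes 23.0% and 28.8%) and 7 and 3 after cyclic loess (29.0% and 24.5%). Eef1a1 and Eef2, the main elongation factors, did not pass (0.03 and 0.09). Eif3m, a subunit of an initiation factor, was 1.66-fold lower, and Vim, an intermediate filament gene, was 15.6-fold higher. Among 20 measured initiation factors without that motif 1 was higher and 11 lower (1 and 6 after centring, 3 and 8 after quantile normalization, 3 and 7 after cyclic loess). As deposited 36.9% of all genes were lower, so the share of 11 of 20 lay above the background. The shares of 8 of 20 after quantile normalization (all genes 22.9%) and 7 of 20 after cyclic loess (24.5%) also lay above it. With centring, where 28.8% of all genes were lower, 6 of 20 was near the background. The difference between this list and all genes was not tested. Eif2s3x, also one of the bright X-linked genes, was 1.41-fold higher and Eif2b3 1.83-fold lower. The list of mTORC1 and regulators of ribosomal protein mRNA translation had 4 higher and 7 lower of 15 (4 and 5 after centring), where 21.8% of all genes were higher and 36.9% lower: the translation inhibitor gene Pdcd4 was 3.51-fold higher and Larp1, which binds TOP tracts, 1.76-fold lower. Of 14 rescue and surveillance genes 2 were higher and 5 lower (14.3% and 35.7%), so the lower share was near the 36.9% of all genes. After cyclic loess 4 were higher and 5 lower, where all genes gave 29.0% and 24.5%. This list was led by G3bp1 at 1.35-fold higher and Gtpbp2 at 1.95-fold lower. Of 7 measured snoRNA hosts 1 was higher and 5 lower (14.3% and 71.4%, all genes 21.8% and 36.9%), and 4 were lower under each other scaling. Eif4a2 was 1.28-fold higher and Snhg5 2.29-fold lower. As drawn up, the host list shares Eif4a2 with the TOP list and Nop56 and Ncl with the snoRNP list. Fau, which encodes Rps30 fused to a ubiquitin-like protein and lies outside the symbol rule, was 1.30-fold lower (adjusted p = 0.00704).

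**Figure D4:**
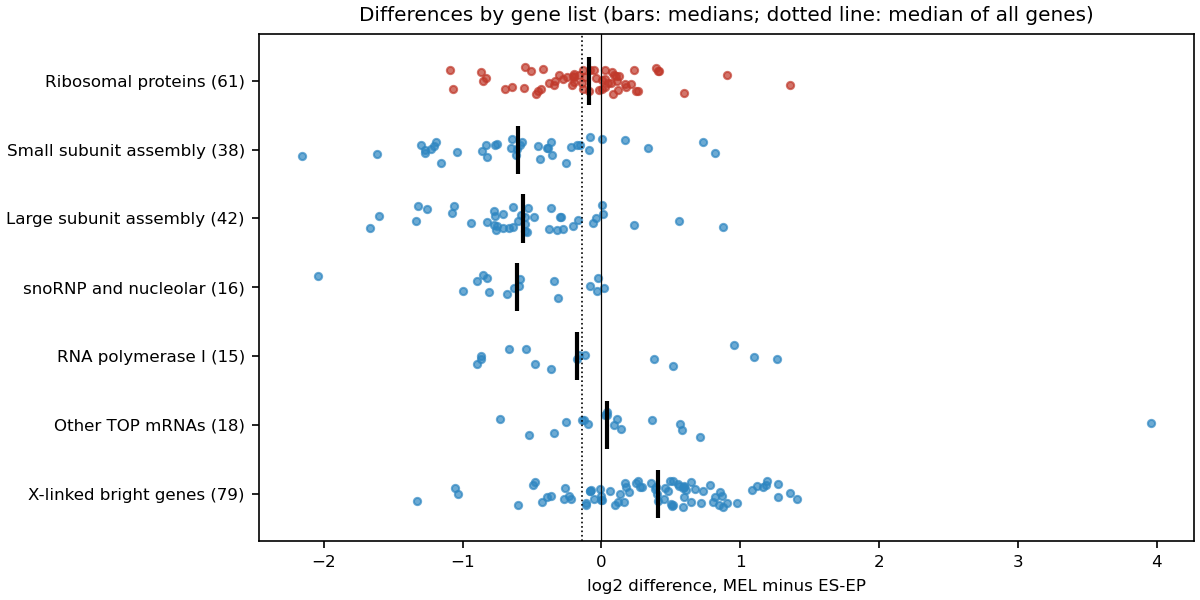
Log2 difference of MEL minus ES-EP for each gene of 7 lists (points, with the number of genes in brackets), with black bars at the list medians and a dotted line at the median of all genes. The bars of the 3 assembly and nucleolar lists lie at -0.61 to -0.57, those of the ribosomal proteins at -0.09, and that of the bright X-linked genes at 0.41.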

How the data were processed

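The deposited table holds log2 values per feature that the authors made by RMA in GeneSpring GX, per the labels. Range and spread of the values gave the scale. Which arrays were normalized jointly, and with what filters, is not stated. RMA hides a change in total RNA per cell and compresses very bright and very dim features, and the number of arrays limits the precision. Control features (6613 of 35557) were left out. Gene names came from the platform annotation, updated by Entrez ID with RefSeq (GRCm38.p6, 21698 of 21789 1-symbol features matched). MEL was compared with ES-EP by limma 3.58.1 (R 4.3.3; 2 residual and 5.15 prior degrees of freedom) over 28944 features, and the procedure was tested on simulated data. An exact permutation test of 4 arrays cannot give a two-sided p under 0.333. The brightest feature over the 4 arrays stands for a gene. Levels were compared between groups, not between genes. The members and lists were chosen with earlier results of these data known. Named are the 6 largest passing differences per direction and subunit, members past 2-fold, the members of the stalk, 5S, paralog and anemia lists, genes whose features disagree, and the largest passing member per direction of the other lists. Alternatives were 3 scalings, other priors, filters, the replicate block, feature means and each sample left out. Letters A and B were not taken to pair samples.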

Additional observations from a re-analysis of the deposited data

How the results depend on the processing

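Of 23 named members that passed, 17 kept direction and call under all 13 alternatives, Rpl22, Rpl36a, Rps4x, Rps27l, Rpl12, Rplp1 and Rplp2 among them. Over all 32 named members, 372 values kept direction and call, 23 lost and 7 gained a call, and 11 changed sign, all in members that had not passed. These were Rpl10 (-0.0361 after quantile normalization), Rpl10l (0.14 after quantile normalization, 0.0901 after cyclic loess), Rpl39l (0.0182 after quantile normalization), and Rpl5 and Rpl7 with averaged features (-0.0149 and -0.0032). Leaving out single samples gave Rpl10l -0.24 to 0.0758, Rpl5 -0.0276 to 0.0282 and Rpl7 -0.0366 to 0.0912.

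The higher members numbered 15 after cyclic loess and 15 with an intensity trend in the prior, against 8 (the trend gave 29 lower, against 20), and 5 to 6 when single samples were left out (5 without ES-EP sample B), while the lower ones then numbered 14 to 18. At least 2-fold higher were 2 members after cyclic loess, and at least 2-fold lower were 1 after quantile normalization and 1 after cyclic loess. As deposited 7.38% and 4.93% of all genes were that far apart, and these shares were not taken for the other scalings. The large subunit median was -0.0051 after quantile normalization, -0.0203 after centring, 0.0399 after cyclic loess, -0.0531 without dim features, -0.062 with averaged features, and -0.12 to -0.0564 without single samples. The small subunit median was -0.0232 after cyclic loess and -0.19 to -0.08 without single samples. The cause of these changes was not tested. With the replicate block 9 members were higher and 20 lower, again without shares over all genes. The same-letter deviations of the groups correlated at 0.11. The number of arrays limits what small differences could be detected.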
